A study of Sus scrofa with 12 samples.

Results

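The regions described here are stretches of exon that carried an N6-methyladenosine (m6A) peak in all 3 samples of 1 pig breed and in none of the 3 samples of the other, inside genes that had at least 1 peak in each breed. The members were chosen from the peaks themselves: the peaks of the 6 lists were cut into their exonic blocks, blocks that shared at least 1 base were merged over the lists, and a merged region was kept when it was hit in 3 of 3 lists of 1 breed and 0 of 3 of the other. Of 9335 merged regions, 8045 lay in genes marked in both breeds and 180 of these met the rule, 133 in Large White and 47 in Ningxiang. They fell in 122 genes. The choice used the breed contrast, so the presence of these regions in 1 breed is a description and has no test.

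The tissue was the longissimus dorsi, the long back muscle, of pigs 5 days old. One group was Large White (labelled LargeWhite) and the other Ningxiang (labelled NingXIANG), with 3 immunoprecipitated samples and 3 input samples each, all from untreated muscle as far as the labels say. Fragmented mRNA was enriched with an m6A antibody and sequenced beside the unenriched input, and each immunoprecipitated sample has 1 list of called peaks. The labels number the samples 1 to 3 in each breed and do not say whether each is a separate pig, so the spread between lists may be technical.

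m6A is the most abundant internal modification of mRNA. It is written by a methyltransferase complex built on METTL3 and METTL14, can be removed by FTO and ALKBH5, and is read by YTH-domain and other proteins that act on splicing, export, translation and decay of the transcript. Peaks gather near stop codons, in 3′ untranslated regions and in long exons, and a transcript can carry several, so 2 groups of animals can mark the same gene at different places.

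The 6 lists held 13487 peaks, between 2034 and 2533 per list, and give no read counts, so the depth behind a peak is unknown. Lists 1, 2 and 3 held 2373, 2214 and 2533 peaks in Large White and 2034, 2111 and 2222 in Ningxiang. The counts by breed below are not adjusted for this. Genes of the contractile apparatus were among those marked: 18 of 36 sarcomere and Z-disc genes had a peak and 11 had one in every list. In the genes marked in both breeds, 1411 regions were hit in all 6 lists. The Large White members made up 1.65% of the 8045 regions and the Ningxiang members 0.584%. A further 1332 regions were hit in 1 Large White list and nowhere else, and 993 in 1 Ningxiang list and nowhere else.

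**Figure D1:**
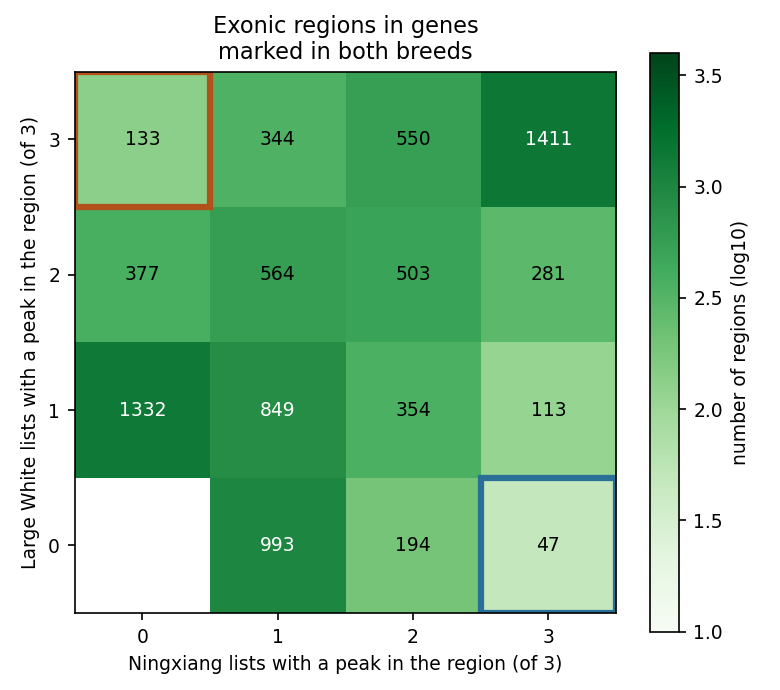
Number of merged exonic regions in genes marked in both breeds, by how many of the 3 Ningxiang lists (x axis) and of the 3 Large White lists (y axis) had a peak there. Colour is log10 of the number, and the 2 outlined cells are the regions described here, 133 (Large White only) and 47 (Ningxiang only).

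Large White members lay in 88 genes, which is 5.57% of the 1580 genes marked in both breeds, and Ningxiang members in 35 genes, which is 2.22%. RYR1, which encodes the channel that releases calcium inside the muscle fibre, was the only gene with members in both directions. Peaks can run over several exons, so 1 peak can give several members: joined through common peaks, the 180 regions formed 127 sites, 92 in Large White and 35 in Ningxiang. In 83 of the 122 genes there was 1 member. KTN1, the kinesin-binding protein kinectin, had 5 members from 1 Large White peak in each list, the most of any site (named after its values were seen).

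Each member was put in 1 of 3 classes. A member was called joined where, in at least 2 own-breed lists, its covering peak also covered an exon marked in the other breed. For that mark 1 list of the other breed was enough. The covering peak then extended along the transcript beyond the part marked in the other breed. Of the other members, those within 300 bp of a peak block of the other breed in the same gene were called adjacent, and the rest apart. By this count 65 members (36.1%) were joined, 14 (7.78%) adjacent and 101 (56.1%) apart. In Large White 53 of 133 were joined (39.8%), 10 adjacent (7.52%) and 70 apart (52.6%). In Ningxiang 12 of 47 were joined (25.5%), 4 adjacent (8.51%) and 31 apart (66.0%). Extension within a single exon cannot appear among these members, because the longer and the shorter block then merge into 1 region. For the same reason a site that moved by less than the length of a block counts as hit in both breeds and is no member.

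A site that moved would show a region marked in 1 breed with, close by, a region marked only in the other. No adjacent member showed that pattern in replicate. For 10 of the 14 adjacent members the nearest region of the other breed was also hit in at least 1 list of the member's own breed, in 3 own lists for 6 of them. For the remaining 4 it was hit in 1 list of the other breed. Among the 101 apart members, the nearest region was hit in 0 own lists and at least 2 other lists for 1 member, in UNC5B, a netrin receptor, 12059 bp away. Among the adjacent members there were thus regions added beside shared ones. Moves small enough for the blocks to overlap could not be seen by this rule.

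Joined members lay, by definition, in the same peak as a part that the other breed marked, which bounds the exonic gap between them. The nearest end of the other breed's block lay a median of 35 exonic bases from the joined member, counted along the member's own peak, and between 1 and 203 bases away. The gap was at most 30 bases for 31 of the 65 and at most 100 bases for 55. The member lay on the 5′ side of the shared part in 40, on the 3′ side in 21 and on both sides in 4. The peak was longer in the member's own breed for 59 of 65, with a median exonic length of 326 bases beside 211 in the other breed. The class itself favours this difference, because the own peak holds the member in addition to a part that the other breed marked. In 38 the overlapping peaks of the other breed lay wholly inside the member's own peaks, and in 27 they also covered bases outside them, a median of 60. The part shared with the other breed often rested on few lists. The member's peaks reached blocks of 3 lists of the other breed for 28 of the 65, of 2 lists for 19 and of 1 list for 18. Of those 28, the other breed's peaks lay wholly inside for 14 and also outside for 14.

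CNN1 encodes calponin 1, an actin-binding protein of smooth muscle cells. Its joined Large White region (chr2:70189199-70189309, susScr11, 111 bp) lay in peaks with folds of enrichment of 2.15, 2.16 and 1.95 and log10 p of -153, -177 and -80.6 in lists 1, 2 and 3. These folds and p-values are the authors' own, one per whole peak, and serve only to describe it. The Ningxiang peaks, at 1.76, 1.76 and 1.84, covered the exons upstream and stopped 5 exonic bases short of it or further away. Large White peaks spanned 268, 357 and 387 exonic bases and Ningxiang peaks 238, 179 and 179. The choice of a joined member favours such a difference, because only 1 breed's peaks cover the member.

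RYR1 gave the shortest named member, 21 bp (chr6:47409855-47409875), with the same extent in all 3 Large White lists. Its peaks had folds of 1.88, 1.88 and 1.96 and the same 211 exonic bases in each list. Ningxiang peaks over the exons downstream had folds of 1.71, 1.73 and 1.8 and covered 121, 181 and 121 bases, starting 9 exonic bases away at the nearest. All 6 lists marked the site, and the Large White peaks reached 1 exon further toward the 5′ end.

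Fat metabolism gave 4 genes with joined Large White members and 1 with a joined Ningxiang member. FABP4, the fatty acid carrier of adipocytes, had a member of 55 bp (chr4:55099289-55099343) in peaks of 2, 1.96 and 1.97, beside Ningxiang peaks of 1.83, 1.78 and 1.8 that began 32 exonic bases downstream at the nearest. Exonic lengths were 291, 262 and 262 bases in Large White and 175, 175 and 204 in Ningxiang, a difference that the choice of the member favours here too. LPIN2, a phosphatidate phosphatase of triglyceride synthesis, had peaks of 2.46, 4.82 and 4.51 in Large White and of 3.21, 4.23 and 5.3 in Ningxiang, with the member (chr6:103707579-103707662) 6 exonic bases upstream of the Ningxiang block. The folds of LPIN2 overlapped between the breeds and the Ningxiang peaks covered up to 30 bases outside the Large White ones.

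ACACA, acetyl-CoA carboxylase, which makes malonyl-CoA for fatty acid synthesis, carried its member (chr12:38669799-38669908) in peaks of 2.67, 3.97 and 4.11. Ningxiang lists 2 and 3 had peaks of 2.97 and 2.78 over the exons upstream, the nearest 39 exonic bases away, and the nearest peak of list 1 was 78165 bp off. CPT1A, which carries long-chain fatty acids into mitochondria for oxidation, had 2 members in neighbouring exons (chr2:4266101-4266208 and chr2:4267107-4267191) in peaks of 2.24, 3.02 and 1.75, and only Ningxiang list 2 (2.46) marked an exon that those peaks reached. In the other direction LPIN1, a lipin like LPIN2, carried a Ningxiang member (chr3:124984159-124984301) in peaks of 1.8, 2.08 and 2.4, and Large White list 3 alone (1.87) had the shared part, 6 exonic bases upstream. In these 3 genes the extension therefore stood beside 1 or 2 lists of the other breed, against 3 for FABP4 and LPIN2.

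PDGFRA, a growth factor receptor that marks fibroblasts and fibro-adipogenic progenitors, had a Large White member (chr8:40999418-40999536) in peaks of 1.8, 1.86 and 2.42 and a Ningxiang peak in reach in list 2 only (2.4), at 151 exonic bases. LAMC1, the laminin gamma 1 chain of basement membranes, had a member (chr9:124393628-124393705) in peaks of 1.64, 1.65 and 2.03, and the nearest reached Ningxiang block was 42 exonic bases away. A peak of Ningxiang list 2 (2.22) that those peaks did not reach had a block 58 bp downstream of the member. BRD2, a reader of acetylated histones, had the longest peaks of the named joined genes, 780, 810 and 810 exonic bases in Large White (folds 4.03, 3.12 and 2.72) and 600, 630 and 570 in Ningxiang. Its member (chr7:25160233-25160401) lay 11 exonic bases upstream of the Ningxiang block. On the other side, 59 bp upstream of the member, Ningxiang list 1 had a further peak (2.04), so Ningxiang blocks flanked it. CHORDC1, a co-chaperone of HSP90, had 2 members (chr9:23198791-23198849 and chr9:23199196-23199299) from peaks of 2.07, 2.7 and 2.01, with Ningxiang folds of 1.83, 2.51 and 2.03 for the peaks nearest to them.

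Among the Ningxiang extensions HMGB2, a chromatin protein of the high mobility group, had the highest rank by p within its lists. Its member of 112 bp (chr14:16710051-16710162) had the same extent in every Ningxiang list and lay in peaks of 2.83, 2.56 and 3.58, against 1.91, 1.84 and 1.73 for the Large White peaks 95 exonic bases downstream. Large White peaks at the gene covered up to 207 bases outside the Ningxiang ones, so each breed had bases that the other lacked. JAK1, a kinase of cytokine receptors, had a member (chr6:147540281-147540358) in peaks of 2.17, 2.05 and 1.95 and 1 Large White list, the third, with the shared part 42 exonic bases away.

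PMEPA1, a membrane protein of the TGF-beta pathway, had 2 members (chr17:58003818-58003871 and chr17:58007763-58007846) in peaks of 2.86, 2.94 and 7.71, and Large White lists 2 and 3 marked its shared part. GUSB, lysosomal beta-glucuronidase, had peaks of 1.96, 3.02 and 2.09 over its member (chr3:16674947-16675048) and shared parts in all 3 Large White lists, 16 exonic bases away. MON1A, a protein of vesicle traffic, varied most between Ningxiang lists, with folds of 2.05, 2.47 and 11.8 over its member (chr13:32427116-32427263).

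**Figure D2:**
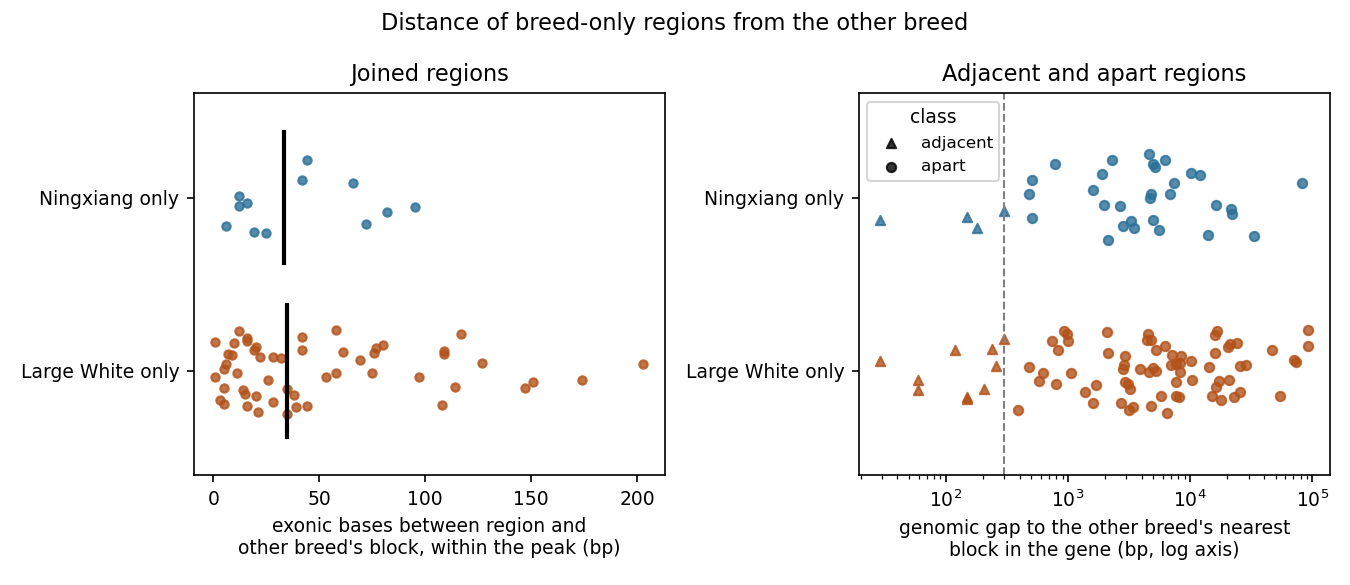
Distance of each member from the other breed. Left: exonic bases between a joined member and the nearest block of the other breed that its peaks reach, with bars at the medians (35 in Large White, 33.5 in Ningxiang). Right: genomic gap in bp, on a log axis, from adjacent (triangles) and apart (circles) members to the nearest block of the other breed in the gene, with the dashed line at 300 bp.

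These gaps can be set beside how far the ends of peaks varied between lists of the same breed. Over the joined members a median of 51 bases of the region were not common to the 3 lists of the breed that had it. The gap to the other breed was no larger than that number for 35 of the 65 and larger for 30. Exonic lengths of peaks came in steps: 82.9% of all peaks had a length within 2 bases of a multiple of 30. For 31 joined members the distance between a hit and no hit was thus 1 such step or less.

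Adjacent members were few and long, with a median length of 299 bp (21 to 691) beside 95 bp for the joined ones. IRS1, the adaptor through which the insulin and IGF1 receptors act, had a Ningxiang region of 450 bp (chr15:128304055-128304504) in its long exon, with folds of 2.75, 3.37 and 3.51 and log10 p of -11.5, -11.1 and -8.7. Large White peaks of 3.1, 3.94 and 5.42 lay 178, 178 and 208 bp downstream. That downstream region was hit in all 3 lists of both breeds, so Ningxiang had 1 more marked stretch beside a common one.

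NR3C1, the glucocorticoid receptor, had the reverse. A Large White region of 300 bp (chr2:144926603-144926902, folds 1.78, 1.76 and 2.23) lay 59 bp at the nearest from a downstream region that all 6 lists hit, where the Ningxiang folds were 2.24, 2.63 and 2.32. ART3, of the ADP-ribosyltransferase family, had a Large White region (chr8:71764864-71765042) with 1 block in each list and folds of 1.62, 1.72 and 1.61, and its nearest region, 206 bp downstream, was hit in 2 lists of each breed. CNN1 had a further Large White region of this class near its 3′ end (chr2:70190459-70190756, annotated by the authors as 3′ UTR), with folds of 1.86, 2.02 and 1.9, at 296 bp from a region hit in 2 lists of each breed. In each of these 3 genes the Large White lists also marked the neighbouring region.

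The other named adjacent members had thinner neighbours. GLI2, a transcription factor of Hedgehog signalling, had a Ningxiang region of 271 bp (chr15:30315621-30315891) in peaks of 3.31, 4.97 and 3.59, and 29 bp from it Large White list 1 alone had a peak. VCAN, the matrix proteoglycan versican, had a Large White region (chr2:91746365-91746586) in peaks of 4.17, 3.77 and 3.5, with a peak of Ningxiang list 3 at 239 bp, and a second member upstream (chr2:91739104-91739182) that was apart. LRP10, an LDL receptor relative, had the longest named member, 508 bp (chr7:76153760-76154267), in which the 3 Ningxiang lists had no base in common: it is a chain of overlapping peaks rather than 1 place. The longest of all were RESF1 and PNISR in Large White (691 and 687 bp, named after their values were seen).

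Apart members had no peak of the other breed within 300 bp. The genomic gap, which includes introns, had a median of 5124 bp, ran from 386 to 92625 bp and was over 1000 bp for 88 of the 101. Measured the same way, joined members had a median of 1783 bp and were over 1000 bp away in 37 of 65, since introns lie between their exons too. In 17 apart members the covering peak also reached a block of the other breed, in 1 own list, 1 short of the number set for joined. TPM2, beta-tropomyosin of the thin filament, had the member with the strongest p-values of all those named. Its Large White region of 149 bp (chr1:236402249-236402397) lay in peaks of 1.87, 1.93 and 1.94 with log10 p of -326, -268 and -208. The nearest Ningxiang peaks were 2875, 3102 and 3232 bp away with folds of 1.76, 1.87 and 1.84 and log10 p of -4590, -3970 and -4050, so the gene was far more strongly called elsewhere in the Ningxiang lists.

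HSPH1, a partner of the HSP70 chaperones, had 2 Large White regions from 1 peak (chr11:7747106-7747265 and chr11:7748140-7748310). The folds were nearly equal, 1.69, 1.71 and 1.72, with log10 p of -135, -259 and -61.6. The nearest Ningxiang peak lay 2108 bp downstream in list 3 and 4142 and 4112 bp away in lists 1 and 2, with log10 p of -8.98, -14.5 and -6.62. HSPH1 was thus marked in both breeds, and the places at 43.9% and 47.9% of the gene from its 5′ end in Large White alone.

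COL5A1, a fibrillar collagen chain, had the Ningxiang member with the highest rank. Its region of 301 bp (chr1:274082814-274083114) lay at the 3′ end of the gene and was annotated by the authors as 3′ UTR, with folds of 2.5, 1.87 and 2.48 and log10 p of -239, -101 and -268. Large White lists had peaks in COL5A1 of 1.81, 2.37 and 2.27, none closer than 81753 bp. No Large White list had a peak at this end of the gene, although its 3 lists called other parts with log10 p of -151, -275 and -323.

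RYR1 carried 2 Ningxiang members in neighbouring exons (chr6:47389967-47390060 and chr6:47390149-47390235), in peaks of 2.03, 1.74 and 2.63. Large White peaks with folds of 1.83, 2.14 and 2.07 began 5124 and 4949 bp downstream of them, in a region that all 6 lists hit. The Ningxiang members of RYR1 lay at 42.3% and 42.5% of the gene from its 5′ end and the Large White member at 59.1%. The 2 directions in this gene were therefore a separate marked place in Ningxiang and a longer peak at a common place in Large White.

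Other apart Ningxiang members had lower ranks. PLIN5, which coats lipid droplets in oxidative tissue, had a region (chr2:74311049-74311248) in peaks of 2.3, 2.44 and 1.91, 2283 bp from a downstream region that all 6 lists hit. KEAP1, the sensor that holds NRF2 in check, had a region (chr2:69287559-69287746) in peaks of 1.58, 2.2 and 1.56, 2818 bp from the nearest Large White block. SOX10, a transcription factor of Schwann cells, had 2 members (chr5:9892598-9892763 and chr5:9897174-9897425) in weak peaks with log10 p of -3.6, -3.67 and -4.58, and 1 peak in the Large White lists, in list 2.

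**Figure D3:**
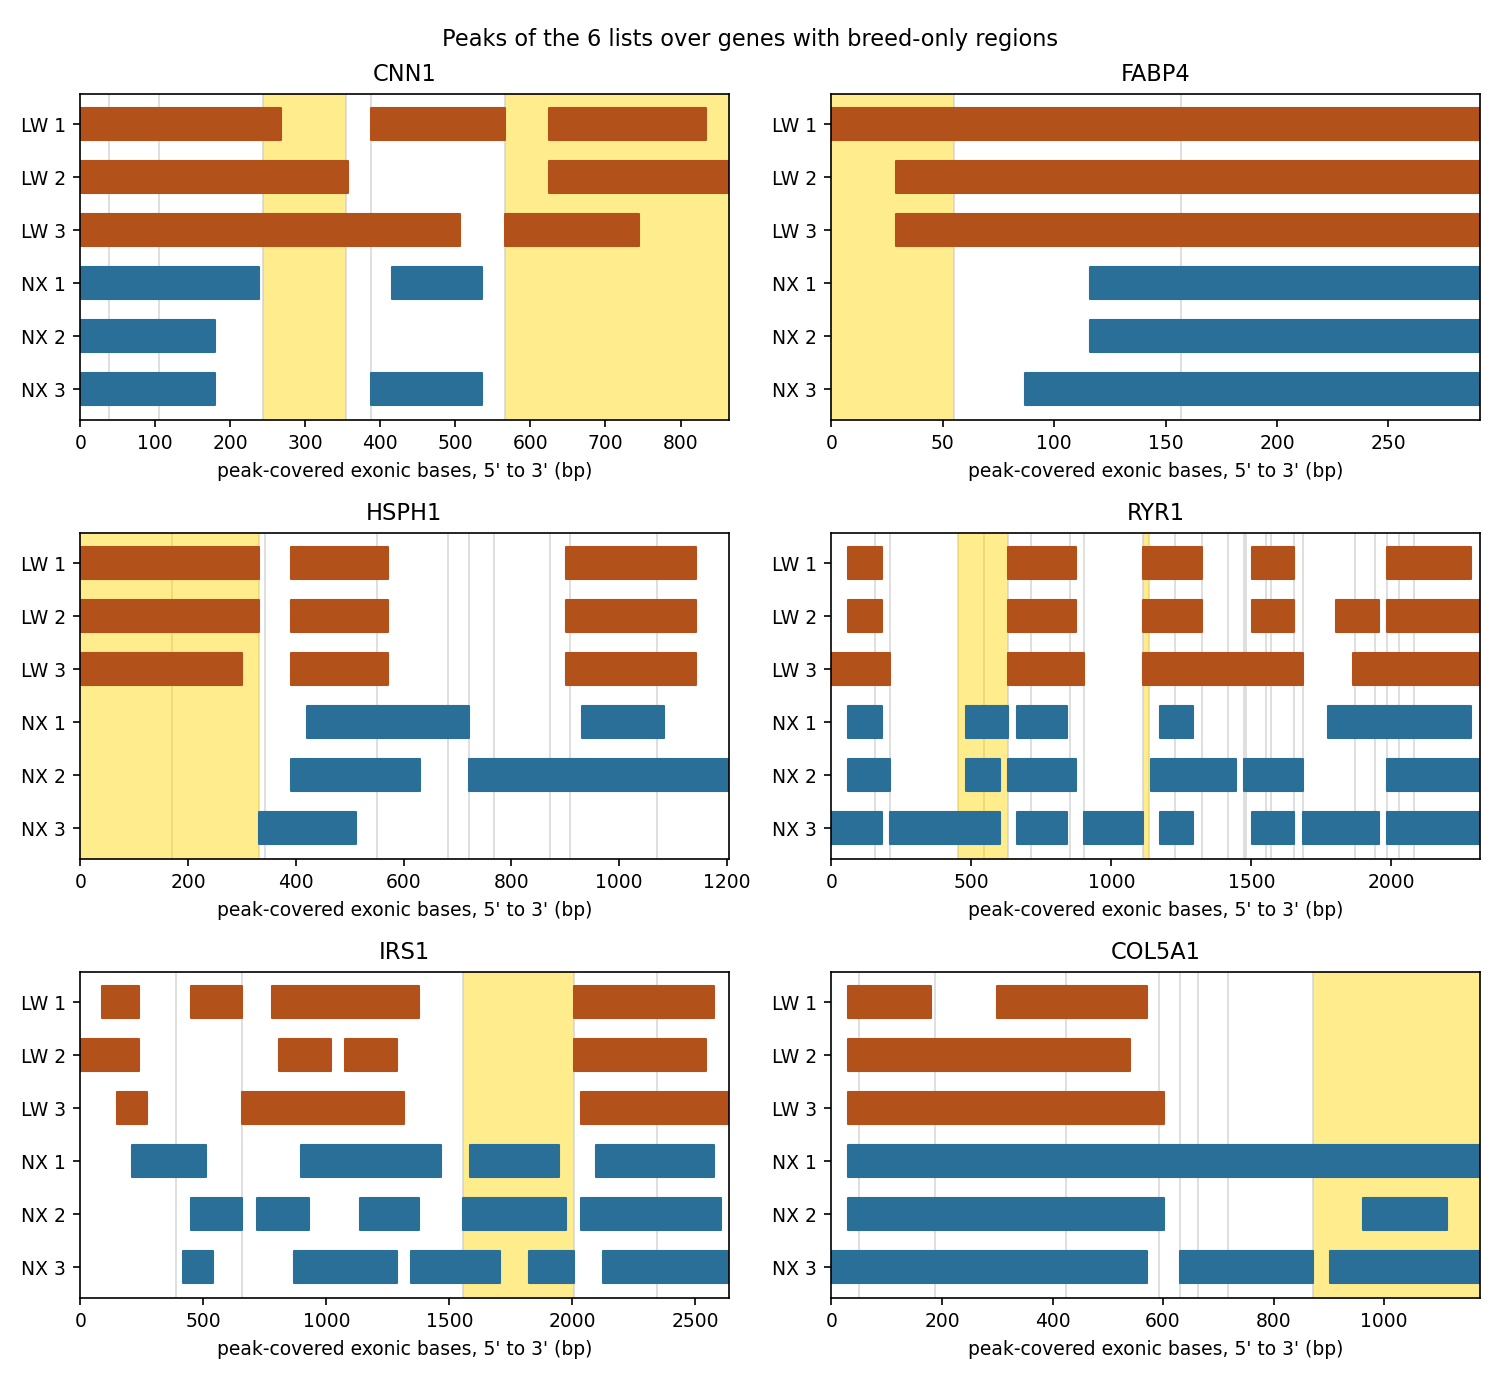
Peaks of the 6 lists over 6 genes with members (LW, Large White; NX, Ningxiang; numbers are replicates). The x axis gives exonic bases covered by any peak, set end to end from 5′ to 3′, and grey lines mark where uncovered sequence was left out, so separate peaks can touch; members are shaded. CNN1, FABP4 and the narrow member of RYR1 show longer Large White peaks, HSPH1, COL5A1 and the wide members of RYR1 show places marked in 1 breed, and IRS1 a place beside a common one.

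For 16 of the 101 apart members the gene held no region hit in both breeds, so the breeds marked different places throughout. These members lay in 9 genes, BAZ1A, HECW2, NANS, NAP1L4, NSF and SPP1 in Large White and HK1, HOXA5 and UNC5B in Ningxiang (the genes other than HK1 named after their values were seen). The other breed had a peak in 1 list for 7 of the 9 and in 2 lists for the other 2, never in 3. HK1, a hexokinase that takes glucose into glycolysis, is an example: its Ningxiang region (chr14:72460051-72460389, 3′ UTR) had folds of 1.62, 2.36 and 2.06, and the single Large White peak (1.8, list 3) lay 33400 bp away. NAP1L4, a histone chaperone, had the strongest peaks of these, with Large White log10 p of -21.1, -15.6 and -18.5 and 1 Ningxiang peak at -16.6. SPP1, the secreted matrix protein osteopontin, had 2 Large White members (log10 p of -4.68, -2.92 and -4.17) and 1 Ningxiang peak 819 bp from the nearer one.

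How well the other breed's gene was covered differed by class. It had a peak in all 3 lists of the other breed for 46 of 65 joined, 10 of 14 adjacent and 47 of 101 apart members, and in 1 list only for 4, 1 and 23. In total 71 of the 122 genes had a peak in every one of the 6 lists, 54 genes with Large White and 18 with Ningxiang members (RYR1 in both). Over all genes marked in both breeds it was 771 of 1580. The rule favours a high count among member genes, because each has a peak in all 3 lists of 1 breed by choice.

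The members touched 6 of the 9 pathway lists. Of the genes marked in both breeds, the fat synthesis, storage and oxidation list held 20, of which 4 had a Large White member (ACACA, CPT1A, FABP4, LPIN2), or 20%, and 2 a Ningxiang member (LPIN1, PLIN5), or 10%. The extracellular matrix and fibroblast list held 11, with 2 Large White (PDGFRA, VCAN) and 1 Ningxiang (COL5A1). Sarcomere and Z-disc genes numbered 16, with TPM2 alone in Large White. Calcium handling numbered 7, with RYR1 in both directions. The insulin and growth factor list had 1 Ningxiang gene of 11 (IRS1), and carbohydrate and energy metabolism 1 of 3 (HK1). None of 11 myogenic regulators, 3 genes of the m6A machinery or 8 of protein turnover and autophagy had a member. Over all genes marked in both the shares were 5.57% and 2.22%. The share in the fat list was above that over all genes in both directions, from 4 and 2 genes. So was the share in the extracellular matrix and fibroblast list, at 18.2% and 9.09% from 2 and 1 genes. Calcium handling was above it too, at 14.3% in each direction from RYR1 alone. These shares were not tested because members and lists were chosen with these data known.

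Markers of other cells in the muscle were marked too. Of 3 adipocyte markers marked in both breeds FABP4 had a member, none of 3 endothelial and 3 immune cell markers had one, the 4 erythroid markers had no peak in any list, and the single nerve marker with a peak, SOX10, had Ningxiang members. SOX10 had a peak in 1 Large White and 3 Ningxiang lists, ADIPOQ in 2 and 3, FABP4 in 3 and 3, and LEP in 1 and 0. A peak needs both the modification and enough RNA from the cells that make it, and in bulk tissue fewer cells of a type and less RNA per cell cannot be told apart. The part of either in these members was not tested.

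The covering peaks of members ranked lower than those of regions common to both breeds, a difference that the rule favours. A region hit in all 6 lists was called every time, and a member was by choice missed in 3 lists. Each peak was ranked by p within its own list, 100 being the strongest. The covering peaks of the members, pooled over their 3 lists, had a median rank of 41.3. The median over lists was 57.2 for all regions in genes marked in both and 76.3 for regions hit in all 6 lists. The lowest of the 3 ranks was 50 or more for 44 of the 180 and under 10 for 41. By class its median was 36.1 for joined, 20.9 for adjacent and 21.8 for apart members in Large White, and 46.6, 27.2 and 20.7 in Ningxiang. The lowest rank was 50 or more for 24 of 65 joined, 3 of 14 adjacent and 17 of 101 apart members, and for 6 of the 12 joined in Ningxiang. Of the named genes CNN1, RYR1, FABP4, TPM2, HSPH1 and COL5A1, all with a lowest rank above 80, stand at the upper end.

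**Figure D4:**
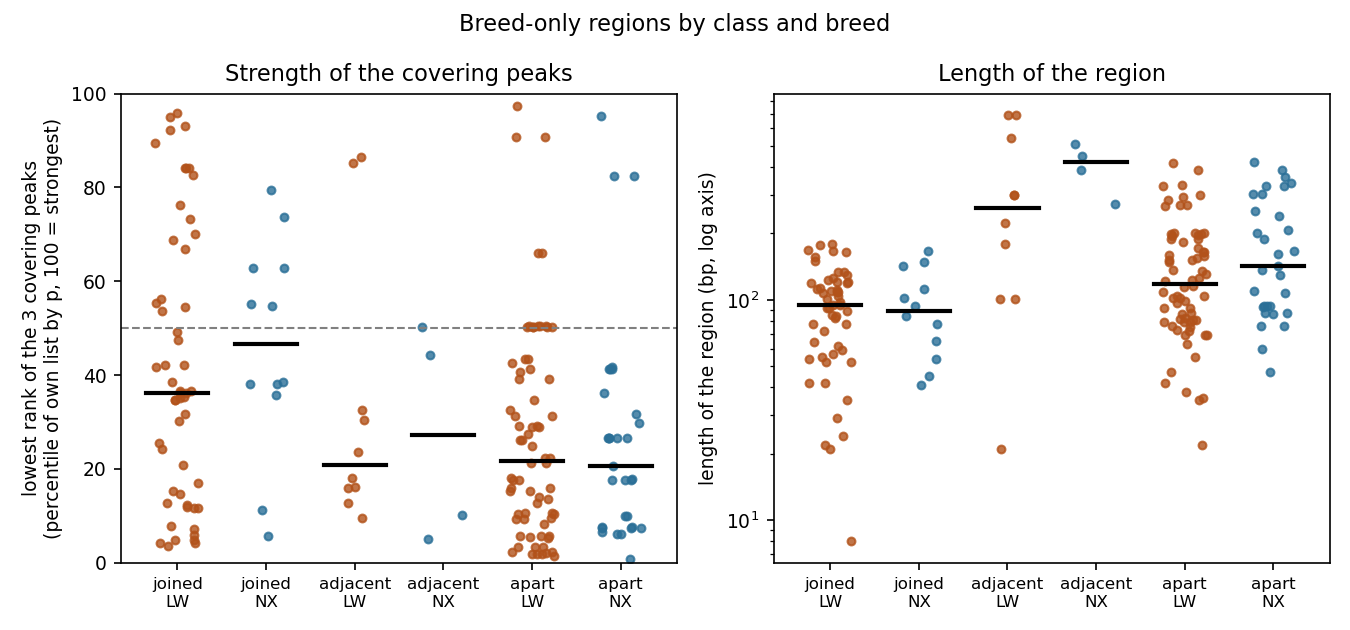
Members by class and breed (LW, Large White; NX, Ningxiang); each point is 1 region and bars are medians. Left: lowest rank of the 3 covering peaks, as a percentile of their own list by p, with the dashed line at 50; right: length of the region in bp on a log axis. Joined members reach from under 10 to above 90 in rank and are the shortest, and adjacent members are the longest.

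In median length and median position members were close to all regions in genes marked in both. Their median length was 110 bp, against 108 bp over all regions in genes marked in both and 168 bp over regions hit in all 6 lists. In 116 of 133 Large White members (87.2%) and 30 of 47 Ningxiang members (63.8%) the covering peak ran over at least 2 exonic blocks in every list, beside 77.7% of all regions in genes marked in both. Counted from the 5′ end of the gene, the middle of the member had a median position of 68.75%. The median was 70.9% over all regions in genes marked in both and 78% over regions hit in all 6 lists. The last 10% of the gene held 22.8% of members. It held 27.4% of all regions in genes marked in both and 35.2% of regions hit in all 6 lists. The rule sets part of these values, because a region hit by more lists is merged from more blocks.

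Within a member the 3 lists did not always cover the same bases. The stretch common to all 3 had a median of 50 bases, or 44.5% of the region. In 24 members the 3 lists had the same extent, in 116 they had at least 30 bases in common, and in 4 (HOXA5, LRP10, LIAS and LAYN) they had none.

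Regions just outside the rule were more numerous than the members. In Large White 344 regions were hit in 3 own lists and 1 Ningxiang list, and 377 in 2 own lists and none, and in Ningxiang the counts were 113 and 194. The first kind included TNNI2, the fast troponin I (Large White log10 p of -2010, -1690 and -1420, Ningxiang list 2 at -3320), and PGAM2, the muscle phosphoglycerate mutase (Ningxiang -1850, -1100 and -917, Large White list 3 at -714). The second kind included MYH2, a fast myosin heavy chain (Large White lists 2 and 3 at -1600 and -554), and TNNT3, the fast troponin T (Ningxiang lists 1 and 2 at -3350 and -3920). Myosin heavy chains are near-identical in long stretches, so reads there may be split between them. These 4 regions had stronger p-values than any member in every list that hit them, and 1 list kept each of them outside the rule.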

How the data were processed

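Peaks were called in each of the 6 immunoprecipitated samples, and the 6 input samples have no list of their own here. The submitters' processing notes name FastQC 0.11.9, HOMER and ChIPseeker 1.30.2, and give susScr11 as the genome build. Which aligner and which peak caller were run is not stated in the sources used. The deposited lists give for each peak its position and blocks, a p-value, its log10 (listed as a score of the caller), a ratio (the authors' fold of enrichment, whose reference is not stated) and the annotation. Starts count from 0, and 1 was added. Read depth is unknown, and no interval is given.

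Blocks were merged with a minimum overlap of 1 bp on both strands together, using Python 3.11.15, pandas 2.3.3 and NumPy 2.4.6. Columns of per-sample values that match no sample number 0. No test was run, because the members were chosen by the breed contrast. The members and lists were chosen with earlier results of these data known. Named are members in the gene lists, the 12 of at least 50 bp per breed with the highest lowest rank, the 3 highest per breed and class, and genes with both directions, plus the 3 best regions of each kind just outside the rule, of which some are printed; 1 named member is not reported here. On simulated peaks of few blocks all 2159 genes gave the planted result, which for most genes was no member. Peaks present in only some lists of a breed were not simulated. RefSeq (Sscrofa11.1) was used for names only: 13434 of 13487 peaks carry a gene number in its table, and for 13072 it gives the listed gene. The MIC-2 member carries the number of VARS, so its gene is uncertain. Base content and motifs of the members were not analysed here.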

Additional observations from a re-analysis of the deposited data

How the results depend on the processing

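The counts of members depended on the lists and thresholds. Large White members numbered 133 and Ningxiang members 47 as reported, and 50 and 14 from the stronger 50% of each list, with 29 of 133 and 10 of 47 kept. They numbered 77 and 26 in genes with a peak in all 6 lists, 39 and 22 with genomic spans in place of exonic blocks (which give no joined or adjacent share), and 87 and 29 when the lists had to share at least 30 bases, a choice made after seeing the data. Leaving out 1 list at a time gave 200 to 288 Large White and 63 to 122 Ningxiang members, since 2 of 2 lists then sufficed or 2 lists had to be empty. With 2034 peaks from every list they numbered 103 and 47. Where a hit had to cover 50% of the region they numbered 132 and 38, but 64 of 133 and 22 of 47 were kept.

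The share joined in Large White was 39.8%, and became 28.7% with at least 30 common bases, 51.5% where a hit had to cover 50% of the region, 50% counted as sites, 51.9% in genes with a peak in all 6 lists and 51.9% where 1 list sufficed. In Ningxiang it was 25.5%, and became 10.3% with at least 30 common bases and 42.9% in the stronger 50%. Leaving out 1 list gave 34.0 to 41.0% and 23.0 to 35.3%. The share adjacent moved with its limit, in Large White from 2.26% at 100 bp to 14.3% at 1000 bp and to 18.9% where a hit had to cover 50%, and in Ningxiang to 2.13% at 100 bp; leaving out 1 list gave 6.0 to 9.43% and 6.35 to 12.4%. The causes were not tested. No paired analysis was possible because these counts come from no test, although the labels give both breeds the same replicate numbers. Base content and motifs were planned and not run. A missing peak shows no level: the lists hold no value where none was called.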
